A study of Mus musculus with 12 samples.

Results

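The comparison described here is loss of estrogen receptor alpha in mice that received no estradiol: 4 libraries of receptor knockout (ERalphaKO) animals under placebo against 2 wild-type (WT) libraries under placebo, that is 6 of the 12 libraries of the study. The labels' genotype and treatment chose the libraries. No gene was selected, and 14832 of the 23284 symbols counted had enough counts to be tested. Every library held RNA of mandibular condylar fibrocartilage with all of its cells, a layer that caps the lower jaw's end of the jaw joint. All animals were female C57BL/6 mice that were ovariectomized at 16 weeks of age, carried a pellet for 1 week and were sampled at 17 weeks. The groups therefore shared the loss of the ovaries, and the pellets differed in holding placebo or 0.01 mg of 17β-estradiol (E2) with a release time of 60 days. The 3 WT and 3 ERalphaKO libraries under E2 are used below as a second, separate set of libraries in which the same genotypes were compared. Which part of the receptor gene Esr1 was removed, and in which cells, the sources used here do not say. The labels do not say that the libraries of a group came from separate animals, so p-values measure the spread between these libraries, which may be technical.

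Estrogen receptor alpha is a nuclear receptor: bound to estradiol it attaches to DNA at estrogen response elements, or through other transcription factors, and raises or lowers transcription of its targets. It can also act without its hormone, for example when growth factor signalling phosphorylates it, and tissues outside the ovary make some estrogen. In condylar cartilage and bone the receptor is known for its part in growth, matrix turnover and the response to estrogen, so a comparison in ovariectomized animals asks what the receptor does when little ligand is present.

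Total counts ran from 16.5 to 28.8 M in the 6 placebo libraries, so that 3 counts, the limit that a count of 0 allows, correspond to 0.110 to 0.180 CPM. CPM is the count scaled to a common library total of 1 M counts. All levels below are CPM after scaling by trimmed mean of M values, in the order WT replicates 1 and 2, then ERalphaKO replicates 1 to 4. A gene's CPM depends on its length, so levels are compared between libraries and not between genes. Tests are edgeR's quasi-likelihood test over all 12 libraries with Benjamini-Hochberg adjustment at 0.05, and fold changes are ERalphaKO relative to WT. Col1a1 and Col2a1, collagens that define fibrocartilage, were at no less than 27005 and 1839 CPM in any of the 6 libraries, while markers of other tissues differed widely. Skeletal muscle markers had a mean log2 CPM of -0.90 in WT replicate 1 and 6.68 in WT replicate 2, and the mean ran from -0.31 to 7.88 in the 4 ERalphaKO placebo libraries, highest in replicate 3. That of granulocyte markers was 3.46 and 0.72 in WT and ran from -0.18 to 9.06 in ERalphaKO, again highest in replicate 3. Counts, intervals and floors cover counting error only. In bulk tissue, fewer cells of a type and less RNA per cell cannot be told apart.

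Only 2 genes passed the test, the receptor gene itself and A2m, and both were lower in ERalphaKO. They were 0.0135% of the genes tested in that direction, and 0 genes were higher (0%). At an unadjusted p under 0.05 there were 1325 genes (8.93%). Under placebo Esr1 was at 17.5 and 14.2 CPM in WT and at 3.65, 5.68, 4.03 and 5.15 CPM in ERalphaKO. All 4 knockout libraries lay below both WT libraries, but none was at 0. Esr1 was 3.42-fold lower (log2 fold change -1.77, SE 0.20, adjusted p = 0.0252). With E2 pellets the WT libraries had 10.6, 8.52 and 12 CPM and the ERalphaKO libraries 5.66, 5.78 and 4.55 CPM, again without overlap, and that difference did not pass the test (log2 fold change -0.97 ± 0.20, adjusted p = 0.0549). Transcript from exons that remain in the knockout allele would be counted as Esr1, so the counts check the labels by direction only. The call of Esr1 was lost without either WT library, at an adjusted p of 0.690 without replicate 1 and 0.149 without replicate 2. It was also lost without ERalphaKO replicate 1 (adjusted p = 0.0943), replicate 3 (0.0659) or replicate 4 (0.0994), and with the 6 placebo libraries fitted alone (0.0847), with muscle markers as a covariate (0.0888) or with lymphocyte markers as one (1.000).

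A2m encodes alpha-2-macroglobulin, a secreted inhibitor that traps proteases of many classes, among them collagenases and aggrecan-degrading enzymes. Under placebo its level was 21.7 and 18.5 CPM in WT. In ERalphaKO it was at 1.86, 2.03, 0.852 and 1.97 CPM. The groups were far apart, and ERalphaKO replicate 3, the library with the most muscle and granulocyte transcript, had the lowest value. A2m was 12.1-fold lower (log2 fold change -3.59, SE 0.29, adjusted p = 0.00179), and errors given as ± below are SE of the same kind. With any 1 of the 6 libraries left out the log2 fold change ran from -3.70 to -3.35 and the call held. It did not hold with the 6 placebo libraries alone (adjusted p = 0.0536) or with the level of lymphocyte markers as a covariate (0.659). The mean log2 CPM of those markers did not overlap between the placebo genotypes (-0.90 and -0.80 in WT, 2.88 to 3.52 in ERalphaKO). That fit can therefore hardly tell the markers from genotype, and a call of A2m or Esr1 lost in it decides nothing.

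The same genotypes were compared under E2 in separate libraries. For A2m the WT libraries under E2 had 137, 130 and 163 CPM, and the ERalphaKO libraries under E2 had 2.71, 1.89 and 1.12 CPM. The knockout level was thus of the same order with and without E2, whereas every WT library under E2 lay above both WT placebo libraries. The log2 fold change under E2 was -6.24 ± 0.34 (adjusted p = 1.63e-05), and its difference from the placebo value was -2.65 ± 0.44 and did not pass the test (adjusted p = 0.0782).

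**Figure D1:**
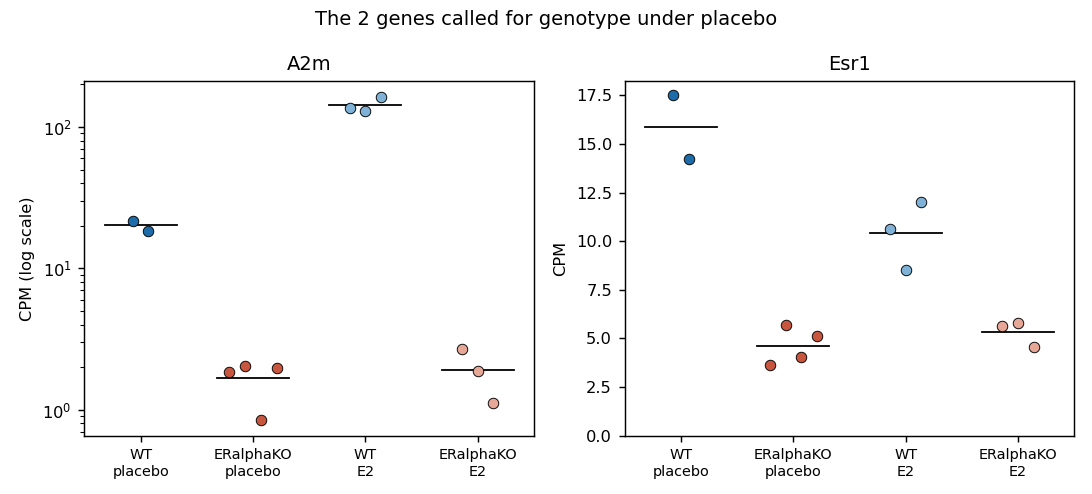
Levels of A2m (log axis) and Esr1 (linear axis) in CPM for each of the 12 libraries, by genotype and treatment; points are libraries and bars are group means. The 4 ERalphaKO placebo libraries lie below both WT placebo libraries for A2m (0.852 to 2.03 against 18.5 to 21.7) and for Esr1 (3.65 to 5.68 against 14.2 to 17.5).

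DESeq2, an alternative count model, called many more genes on the same 12 libraries: 120 higher (0.633% of 18958 genes) and 25 lower (0.132%) in ERalphaKO under placebo. The authors' deposited table for this comparison listed 224 genes higher (1.51% of 14831) and 46 lower (0.31%) at an adjusted p under 0.05. DESeq2 fitted to the 6 placebo libraries alone gave 225 higher (1.21%) and 45 lower (0.243%), of which 218 and 45 were also in the authors' table. Apart from Esr1 and A2m, the genes named from here on were chosen after their values were seen, unless they are said to be the most abundant members of a list.

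The 25 genes that DESeq2 called lower had a median log2 fold change of -0.47 in edgeR, against -3.59 for A2m. Fzd2, a receptor for Wnt ligands, was at 17.8 and 15.1 CPM in WT and at 9.16, 9.56, 8.79 and 9.41 CPM in ERalphaKO. The 4 knockout libraries lay within a narrow band below both WT libraries (log2 fold change -0.83 ± 0.12, edgeR adjusted p = 0.185, DESeq2 adjusted p = 4.19e-05). Slc16a3, which exports lactate from glycolytic cells, was at 83.7 and 94.8 CPM in WT and at 55.7, 60.5, 70.2 and 60.9 CPM in ERalphaKO (edgeR adjusted p = 0.33). Bsg, the partner that carries lactate transporters to the cell surface, was at 451 and 475 CPM in WT and at 353 to 382 CPM in ERalphaKO. The groups did not overlap for either gene of this pair. Ltbp4, which stores latent TGF-beta on matrix fibres, was at 289 and 297 CPM in WT and at 194 to 227 CPM in ERalphaKO. Clec11a, a secreted growth factor that favours bone formation, was at 522 and 512 CPM in WT and at 348 to 391 CPM in ERalphaKO. Cdkn1c, an inhibitor of cyclin-dependent kinases, was at 49.5 and 54.2 CPM in WT and at 31.3 to 37.0 CPM in ERalphaKO. These 3 genes are, respectively, a matrix protein, a growth factor and a brake on the cell cycle, and in each the lowest WT library was above the highest ERalphaKO library. Megf6 had 102 and 111 CPM in WT and 61.0 to 72.2 CPM in ERalphaKO, and Tmem132a had 54.4 and 46.9 against 34.7 to 36.9 CPM. Scarb1, the receptor for high-density lipoprotein, had 86.5 and 91.5 against 61.3 to 68.5 CPM. Podnl1, a small leucine-rich repeat protein of the matrix, had 108 and 94.6 against 71.2 to 80.4 CPM. Pltp, which transfers phospholipids between lipoproteins, had 95.4 and 94.3 against 74.4 to 82.4 CPM. None of these passed edgeR's test under placebo, and the p-values that chose them came from the same values.

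The libraries under E2 were not used to choose these genes, although DESeq2 estimated the spread from all 12. Under E2 the genotypes were separated, with every ERalphaKO library the lower, for 9 of the 25 genes (36%), against 8.94% of all genes tested, and 4 of the 25 were called lower by edgeR: A2m, Pi15, Myh10 and Pltp. Myh10, a heavy chain of nonmuscle myosin II, was at 59.5 and 62.5 CPM in WT placebo, at 42.6, 48.1, 43.2 and 47.8 CPM in ERalphaKO placebo, at 93.7, 78.9 and 81.5 CPM in WT under E2 and at 45.2, 42.3 and 47.2 CPM in ERalphaKO under E2. Its knockout libraries formed 1 level under both treatments, and its log2 fold change was -0.43 ± 0.09 under placebo (adjusted p = 0.33) and -0.92 ± 0.08 under E2 (adjusted p = 0.000449).

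Most of the other genes of this group went the opposite way in WT animals with hormone. For 21 of the 25 all 3 WT libraries under E2 lay below both WT placebo libraries, and for the other 4 all lay above. These counts reuse the WT placebo libraries that chose the genes, so they describe the levels and support nothing. For Megf6 the WT libraries under E2 had 48.5, 61.1 and 55.6 CPM, at or below the ERalphaKO placebo levels, and the ERalphaKO libraries under E2 had 52.2, 73.3 and 66.1 CPM. Its genotype difference was -0.66 ± 0.13 on the log2 scale under placebo and 0.21 ± 0.13 under E2. Clec11a showed the same layout, with 344, 382 and 293 CPM in WT under E2 and 362, 426 and 381 CPM in ERalphaKO under E2. For Fzd2 the WT libraries under E2 had 11.9, 12.6 and 9.58 CPM and the ERalphaKO libraries 9.88, 9.46 and 9.51 CPM. The WT placebo libraries thus stood above the other 3 groups for these genes, and with only 2 such libraries a property of the pair and an effect of the receptor without E2 cannot be told apart. No difference between the genotype effects under placebo and E2 passed the test for Megf6 (adjusted p = 0.203), Clec11a (0.304) or Fzd2 (0.493).

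**Figure D2:**
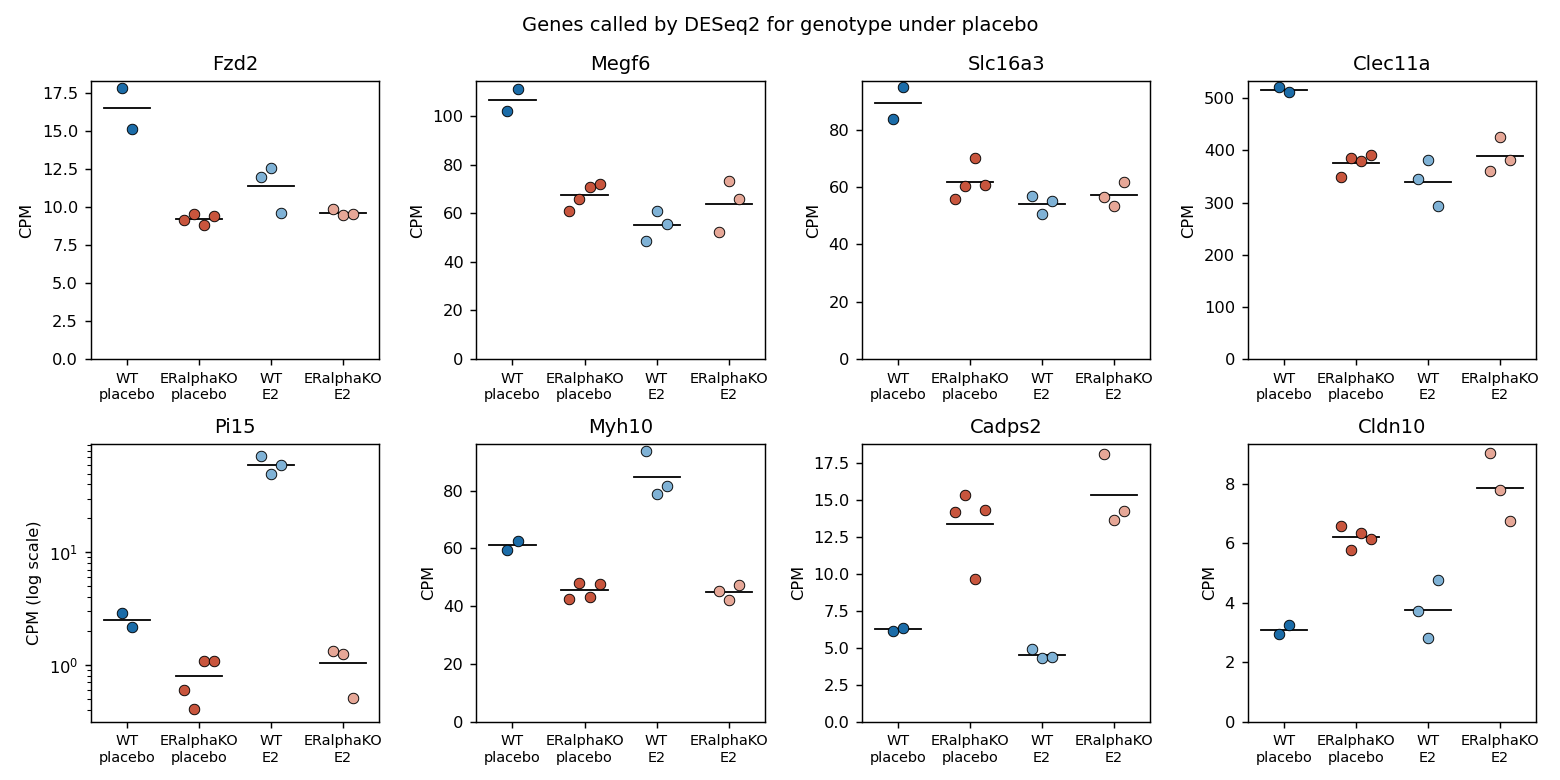
Levels in CPM of 8 genes that DESeq2 called under placebo, in each of the 12 libraries by group; bars are group means, and the Pi15 axis is logarithmic. For Fzd2, Megf6, Slc16a3 and Clec11a the 2 WT placebo libraries stand highest, for Pi15 and Myh10 the WT libraries under E2 stand highest, and for Cadps2 and Cldn10 the ERalphaKO libraries stand above WT under both treatments.

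Among the 120 genes that DESeq2 called higher, 69 had a log2 fold change above 2 in edgeR, and 11 were among the 13 tested members of a list of 16 B and T lymphocyte markers. B lymphocytes are made in bone marrow, where precursors cut and join their immunoglobulin genes with the Rag1 and Rag2 recombinase and display a surrogate light chain, to which Vpreb1 and Igll1 contribute, before they carry a mature receptor. Under placebo Rag1 was at 0 and 0.0733 CPM in WT and at 75.5, 62.7, 18.6 and 45.0 CPM in ERalphaKO. With 2 counts in WT and 4248 in ERalphaKO the ratio was 1052 (95% interval from counting error only, 291 to 8687). Rag2 was at 0 and 0.0366 CPM in WT and at 5.86, 10.7, 5.77 and 6.60 CPM in ERalphaKO (ratio 321, interval 57.4 to 12692). Both recombinase genes were thus near the counting floor in WT and well above it in each knockout library. Vpreb3 was at 0 and 0.110 CPM in WT and at 29.4, 35.7, 12.2 and 19.7 CPM in ERalphaKO (ratio 345, interval 118 to 1674). Igll1 was at 0.0587 and 0.0366 CPM in WT and at 3.11, 6.81, 20.6 and 12.3 CPM in ERalphaKO (ratio 258, interval 71.2 to 2131). Dntt, the polymerase that adds bases at the joints, was at 0.0587 and 0.0366 CPM in WT and at 10.1, 3.97, 30.1 and 21.7 CPM in ERalphaKO (ratio 389, interval 108 to 3216). These precursor genes did not follow 1 order over the knockout libraries: Rag1 and Vpreb3 were lowest in replicate 3, and Igll1 and Dntt were highest there.

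Genes of the B lineage as a whole showed the same separation. Cd79b, a signalling chain of the B cell receptor, was at 0.645 and 0.476 CPM in WT and at 54.9, 60.7, 17.6 and 31.8 CPM in ERalphaKO (log2 fold change 6.21 ± 1.31, edgeR adjusted p = 0.33, DESeq2 adjusted p = 1.23e-05). The transcriptional coactivator Pou2af1 was at 1.17 and 0.586 against 53.2, 66.7, 17.4 and 28.4 CPM. All 4 knockout libraries were above both WT libraries in each case. Il7r, a cytokine receptor chain of lymphocyte precursors, was at 0.411 and 0.440 against 20.8, 27.2, 8.87 and 11.7 CPM. Pax5, which fixes B cell identity, was at 0.411 and 0.586 against 9.16, 8.30, 2.29 and 4.14 CPM. Ebf1 is also expressed in stromal cells and had a nearer pair of levels, 11 and 9.05 against 21.8, 23.8, 12.3 and 16.8 CPM. Among T cell genes, Lck was at 0.411 and 0.476 against 1.37 to 2.44 CPM. Cd4, which macrophages also express, was at 11.03 and 8.72 against 11.3 to 14.1 CPM. Cd3e had 3 counts in WT and 12 in ERalphaKO (ratio 1.98, interval 0.534 to 10.9), and Cd3g had 3 and 20 counts (ratio 3.30, interval 0.979 to 17.3).

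Over the 13 tested markers WT placebo libraries averaged log2 CPM of -0.80 and -0.90 and ERalphaKO placebo libraries 3.39, 3.52, 2.88 and 3.13, and the summed level was 20.8 to 25.7 against 139 to 337 CPM. All 4 knockout libraries were above both WT libraries for 12 of the 13, against 10.5% of all genes tested, and the median log2 fold change was 4.94 against 0.01 over all genes. Markers such as Rag1, Vpreb3 and Igll1, with 2 or 3 counts in WT placebo, passed the count filter through the knockout libraries alone, so this share and median describe the 13 and support nothing. In edgeR 0 of the 13 passed, while DESeq2 called 11 and the authors' deposited table listed 10 as higher.

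Under E2 the separation was incomplete. The 3 WT libraries had mean log2 CPM of -0.79, -1.29 and -0.28 over the 13 markers, and the 3 ERalphaKO libraries had 3.36, -0.63 and 1.89. ERalphaKO replicate 2 under E2 was therefore at the WT level: Rag1 was at 0 CPM there, against 29.3 and 7.31 CPM in replicates 1 and 3, and Cd79b was at 1.68 against 33.9 and 6.39 CPM. Replicate 2 had the fewest counts of the 12 libraries, 9.70 M, so a count of 0 allows up to 0.315 CPM there. That library was above all 5 WT libraries for 2 of the 13 markers, against 12 and 11 in the other two. Over the 120 genes, replicate 1 was above all 5 WT libraries for 113, replicate 2 for 27 and replicate 3 for 79. The 5 include the WT placebo libraries that chose the 120 genes, and the same share was not counted over all genes tested. These counts, and those over the 13 markers, therefore describe the levels and support nothing. Without overlap under E2 were 25 of the 120 (20.8%, against 6.97% of all genes tested), and edgeR called 4 of them higher under E2, among them Il7r (log2 fold change 3.52 ± 0.70, adjusted p = 0.0435). The granulocyte markers had a median log2 fold change of 5.22 under placebo, with 15 of 15 tested markers above 0. DESeq2 on the 6 placebo libraries called 4 of these markers higher. In the full set 0 of the 15 were separated between the placebo groups, and without ERalphaKO replicate 2, the knockout library lowest in these markers, 6 of 15 lay above WT (40%, against 13.1% of all genes). Without WT replicate 1, the WT library highest in these markers, it was 5 of 15 (33.3%, against 19.9%). Without WT replicate 2, or without ERalphaKO replicate 1, 3 or 4, it was 0 of 15. Leaving out the lowest knockout or the highest WT library makes separation more likely, so the counts of 6 and 5 support nothing. The part of marrow or blood cells in the lymphocyte result was not tested.

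**Figure D3:**
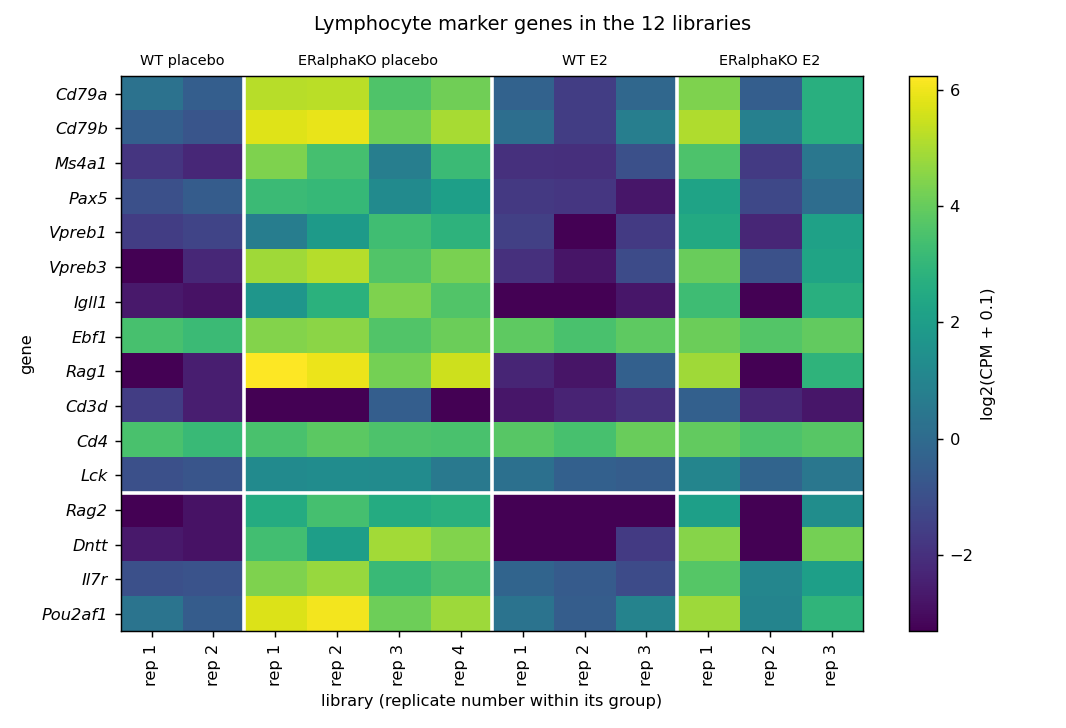
Heat map of log2(CPM + 0.1) for 12 of the 13 tested lymphocyte markers, with Rag2, Dntt, Il7r and Pou2af1 below the white line, in the 12 libraries. The 4 ERalphaKO placebo libraries and ERalphaKO E2 replicates 1 and 3 are brighter for the B-lineage genes than all 5 WT libraries and ERalphaKO E2 replicate 2, with the least contrast for Ebf1.

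Cadps2 and Cldn10, also called higher by DESeq2, had another layout. Cadps2, which primes secretory vesicles for release, was at 6.16 and 6.37 CPM in WT placebo, at 14.2, 15.3, 9.65 and 14.4 CPM in ERalphaKO placebo, at 4.92, 4.28 and 4.40 CPM in WT under E2 and at 18.1, 13.7 and 14.3 CPM in ERalphaKO under E2. The genotypes were separated under both treatments, by 1.09 ± 0.20 on the log2 scale under placebo (edgeR adjusted p = 0.33) and by 1.76 ± 0.18 under E2 (adjusted p = 0.00115). Cldn10, a tight junction protein, was at 2.93 and 3.26 CPM in WT placebo and at 6.58, 5.77, 6.35 and 6.15 CPM in ERalphaKO placebo. Under E2 it was at 3.71, 2.82 and 4.76 against 9.03, 7.78 and 6.75 CPM, and the difference was of similar size, 1.00 ± 0.21 under placebo (adjusted p = 0.33) and 1.06 ± 0.20 under E2 (adjusted p = 0.0316). In ERalphaKO E2 replicate 2, where the B-lineage genes were at the WT level, both genes were at the level of the other knockout libraries.

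The genes that differed between the genotypes under E2 could be followed in the placebo libraries, because the 2 genotype comparisons use different libraries and share only the estimate of the spread. Under E2 edgeR called 96 genes lower (0.647%) and 67 higher (0.452%) in ERalphaKO. Skeletal muscle markers also differed by genotype under E2, with a mean log2 CPM of 3.49 to 5.56 in WT and -0.60 to 1.60 in ERalphaKO. With muscle markers as a covariate 63 genes were called lower and 30 higher, and the part of muscle in the calls was not tested. Under placebo all 4 knockout libraries lay below both WT libraries for 28 of the 96 (29.2%, against 10.6% of all genes tested) and above for 5. Of the 67, all 4 lay above for 21 (31.3%, against 10.5%) and below for 2. Without ERalphaKO placebo replicate 3 the counts were 41 of 124 (33.1%, against 17.2%) and 40 of 82 (48.8%, against 16.5%), and for the higher genes they were 11 of 39 without replicate 2 (28.2%, against 13.1%) and 13 of 43 without replicate 4 (30.2%, against 13.2%). The placebo difference was below 0 for 66 of the 96 (against 47.9% of all genes tested) and above 0 for 52 of the 67, and 22 and 14 had an unadjusted p under 0.05 under placebo. Sizes were smaller without hormone: the median log2 fold change of the 96 was -0.15 under placebo and -1.38 under E2, and that of the 67 was 0.23 and 1.09. The E2 values chose the genes and tend to be large for that reason. The difference between placebo and E2 passed the test for 8 genes (0.0539%), and all 8 were among the 163.

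Some of these genes had a graded layout, with the knockout lowest, WT placebo between and WT under E2 highest. Pi15, a secreted protein named as a peptidase inhibitor, was at 2.87 and 2.16 CPM in WT placebo, at 0.598, 0.406, 1.08 and 1.09 CPM in ERalphaKO placebo and at 49.5 to 71.1 CPM in WT under E2. Its placebo difference was -1.62 ± 0.38 (edgeR adjusted p = 0.33) and its E2 difference -5.91 ± 0.40 (adjusted p = 1.0e-04). The calcium channel gene Trpc6 was at 4.46 and 2.6 CPM in WT placebo, at 1.32, 1.53, 2.83 and 2.09 CPM in ERalphaKO placebo and at 42.0 to 75.6 CPM in WT under E2. Trpc6 overlapped between the placebo groups, since ERalphaKO replicate 3 was above WT replicate 2. Myo5c, a motor that moves secretory vesicles, was at 0.763 and 1.32 CPM in WT placebo and at 0.299, 0.226, 0.736 and 0.402 CPM in ERalphaKO placebo. Sost, the secreted Wnt antagonist of osteocytes, was at 149 and 95.9 CPM in WT placebo and at 58.9, 62.4, 82.8 and 46.7 CPM in ERalphaKO placebo, with 162 to 362 CPM in WT under E2. Both genes were separated between the placebo groups, and neither passed edgeR's test there (adjusted p = 0.457 and 0.459). Olfm2 was at 5.22 and 5.09 against 2.51, 2.80, 2.63 and 4.06 CPM, the carbonyl reductase gene Cbr2 at 13.7 and 14.1 against 10.4, 8.89, 6.62 and 6.96 CPM, and the Wnt receptor gene Fzd10 at 1.64 and 1.06 against 0.598, 0.631, 0.349 and 0.563 CPM. In the other direction, the actomyosin regulator Limch1 was at 163 and 143 CPM in WT placebo and at 250.3, 216, 216 and 213 CPM in ERalphaKO placebo, with 21.7 to 49.2 CPM in WT under E2 and 205 to 260.1 CPM in ERalphaKO under E2. The phosphate transporter Slc20a2 was at 118 and 114 against 155, 153, 126 and 154 CPM, the laminin chain Lama1 at 0.235 and 0.403 against 1.02, 0.947, 1.08 and 1.33 CPM, and the cell adhesion gene Chl1 at 1.29 and 1.72 against 2.39, 4.78, 4.22 and 3.18 CPM.

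Other genes called under E2 were at a like level in both genotypes under placebo. Greb1, a coregulator and one of the best known estrogen-induced genes, was at 0.117 and 0.256 CPM in WT placebo and at 0.120, 0.180, 0.155 and 0.201 CPM in ERalphaKO placebo, from 2 to 7 counts a library, and at 17.4 to 26.3 CPM in WT under E2. Its placebo difference was -0.24 ± 0.43 (adjusted p = 0.926), its E2 difference -6.09 ± 0.33 (adjusted p = 1.63e-05), and the difference between them -5.85 ± 0.56 (adjusted p = 0.00862). Thbs1, a matrix glycoprotein that activates TGF-beta, was at 175 and 135 CPM in WT placebo, within the 130 to 209 CPM of ERalphaKO placebo, and at 551 to 649 CPM in WT under E2. Whrn, a scaffold protein, was at 29.6 and 28.7 against 20.8 to 31.5 CPM under placebo. The guanylate-binding protein genes Gbp4 and Gbp8, known for induction by interferon, also overlapped under placebo, Gbp4 with 7.68 and 5.31 CPM in WT and 6.68 to 10.7 CPM in ERalphaKO and Gbp8 with 0.939 and 0.440 against 0.563 to 1.28 CPM. Gbp9 had opposite signs: it was at 5.63 and 4.51 CPM in WT placebo and at 14.1, 10.1, 9.53 and 8.53 CPM in ERalphaKO placebo, a log2 fold change of 1.06 ± 0.29 (edgeR adjusted p = 0.37). Under E2 it was at 21.5, 13.6 and 22.2 CPM in WT and at 9.88, 5.89 and 6.80 CPM in ERalphaKO, a log2 fold change of -1.34 ± 0.26 (adjusted p = 0.0395). The difference between its placebo and E2 effects did not pass the test (adjusted p = 0.072).

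In the list of estrogen-responsive genes, 22 of 25 members were tested and 0 passed under placebo in edgeR or in DESeq2 on 12 libraries. The median log2 fold change was -0.16 against 0.01 over all genes. All 4 knockout libraries lay below WT for 2 members and above for 1, no more often than over all genes tested (10.6% and 10.5%). Pgr, the progesterone receptor gene, had 0 to 4 counts in each of the 6 placebo libraries, between 0 and 0.147 CPM. Igf1, a growth factor of bone and cartilage, was at 111 and 137 CPM in WT and at 88.9, 93.9, 78.4 and 80.0 CPM in ERalphaKO, without overlap (log2 fold change -0.54 ± 0.25, edgeR adjusted p = 0.568). It was the 1 member that DESeq2 on the 6 placebo libraries called lower (adjusted p = 0.0118), and the 1 listed as lower in the authors' deposited table (adjusted p = 0.0114). Cish, a feedback inhibitor of cytokine signalling, was at 4.52 and 5.20 against 2.63, 2.89, 3.25 and 3.18 CPM. Ctsd, a lysosomal protease, overlapped, with 785 and 759 against 601 to 791 CPM. Among 18 tested genes of sex steroid receptors and steroid metabolism 0 passed and the median was 0.04, and among 19 tested coregulators of the receptor 0 passed and the median was 0.08. Esr2, the gene of estrogen receptor beta, had 0 counts in WT placebo and 5 in ERalphaKO placebo libraries and was not tested.

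Tissue programmes were read from 20 pathway lists and 11 cell type lists, and A2m was the 1 member of any list that passed in edgeR. The counts that follow are of members whose 4 knockout libraries lay all above or all below WT, to be set against 10.5% and 10.6% of all genes tested. Matrix proteases and their inhibitors had 12 of 24 members below and 0 above, with a median log2 fold change of -0.24. Besides A2m, the membrane collagenase Mmp14 was at 1658 and 1364 CPM in WT and at 959, 975, 1022 and 1040 CPM in ERalphaKO (edgeR adjusted p = 0.484, authors' deposited table adjusted p = 5.85e-05). Mmp2 and Mmp13, which cut gelatin and fibrillar collagen, were at 3997 and 3586 against 2895 to 3371 CPM and at 3274 and 3198 against 2290 to 2967 CPM. Wnt ligands, receptors and antagonists had 11 of 26 members below and 1 above, with a median of -0.22. Frzb, a secreted Wnt antagonist of articular cartilage, was at 25.6 and 29.3 against 16.5, 16.9, 11.7 and 14.0 CPM (adjusted p = 0.36). Wnt target genes, in contrast, had 0 of 13 members below and 0 above, with a median of -0.05. Glycolysis and hypoxia genes had 11 of 21 members below and 0 above, with a median of -0.24 and 9 members at an unadjusted p under 0.05. The 9 included the hexokinase gene Hk1, at 133 and 126 against 107 to 113 CPM, and Pgam1, at 24.2 and 28.1 against 18.3 to 21.3 CPM. Ldha, a lactate dehydrogenase subunit, was at 399 and 492 against 343 to 395 CPM, also without overlap.

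The structural genes of the tissue were separated in smaller shares. Fibrous matrix genes had 9 of 26 members below and 0 above, with a median of -0.25 and 0 members at an unadjusted p under 0.05. The most abundant, Col1a1 and Col1a2, were at 41689 and 42539 against 27005 to 40197 CPM and at 45871 and 49038 against 33620 to 46714 CPM. Without WT replicate 1 the count was 14 of 26, and without WT replicate 2 it was 15 of 26, against 19.4% and 21.2% of all genes. Cartilage matrix genes had a lower median, -0.31, and 2 of 22 members below. Without WT replicate 1 the count was 14 of 22 (63.6%, against 19.4%), and without ERalphaKO replicate 1 it was 8 of 22 (36.4%, against 13.7%). Without WT replicate 2 it was 2 of 22 (9.09%, against 21.2%). It was also 2 of 22 without ERalphaKO replicate 3 (against 17.2%) or replicate 4 (against 13.4%), and 3 of 22 without replicate 2 (13.6%, against 13.2%). The 2 WT libraries differed from each other in Col2a1, the main collagen of cartilage, which was at 3695 and 7146 CPM in WT and at 1839 to 4533 CPM in ERalphaKO. Hypertrophy and mineralization genes had 5 of 19 below, osteoblast and osteocyte markers 6 of 16, TGF-beta and BMP genes 7 of 28, insulin-like growth factor genes 5 of 18 and hedgehog and PTHrP genes 4 of 15. Members above numbered 1, 0, 2, 1 and 1 in that order. Without ERalphaKO replicate 1 the TGF-beta and BMP count below was 4 of 28 (14.3%, against 13.7% of all genes). It was 11 without replicate 2 (39.3%, against 13.2%), and 8 without replicate 3 (28.6%, against 17.2%) or replicate 4 (28.6%, against 13.4%). Among the members of these lists Pth1r, the receptor of parathyroid hormone and PTHrP, was at 687 and 675 against 419 to 568 CPM. Smo, which passes the hedgehog signal, was at 196 and 184 against 151 to 168 CPM. Igfbp5, a carrier of insulin-like growth factors, was at 3708 and 3135 against 1963 to 2979 CPM, and Irs1, an adaptor of their receptor, at 170 and 166 against 105 to 148 CPM. Both pairs lay without overlap and did not pass the test.

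The lists with the largest shares in the other direction were those of dividing and immune cells. Estrogen receptor coregulators had 3 of 19 members above (15.8%) and 2 below (10.5%). Cell cycle genes had 13 of 26 members above and 0 below, with a median of 0.41. Mki67, a marker of proliferating cells, was at 82.2 and 76.3 CPM in WT and at 149, 115, 190 and 109 CPM in ERalphaKO, and Top2a, which untangles replicated DNA, was at 63.4 and 55.6 against 92.1, 92.4, 148 and 89.1 CPM. MHC class II genes had 8 of 11 members above and 0 below, with a median of 0.74, among them Cd74, the invariant chain, at 111 and 77.5 against 142, 135, 226 and 126 CPM, and H2-Ob, a form made by B cells, at 0.176 and 0.916 against 9.75, 8.89, 3.52 and 6.27 CPM. Interferon response genes had 6 of 25 above and 0 below, with a median of 0.39. The count above was 11 without WT replicate 1 (44%, against 19.9% of all genes) and 10 without ERalphaKO replicate 2 (40%, against 13.1%). It was 7 without WT replicate 2 (28%, against 21.5%) or ERalphaKO replicate 1 (28%, against 13.6%). It was 6 without ERalphaKO replicate 3 (24%, against 16.5%) or replicate 4 (24%, against 13.2%). In this list WT replicate 1 was the higher WT library and ERalphaKO replicate 2 the lowest knockout library. Leaving out either makes separation more likely, so the counts of 11 and 10 support nothing. Under E2 the median genotype difference was 0.24 for the cell cycle list, -0.54 for MHC class II and -0.74 for interferon. The MHC class II and interferon medians thus had opposite signs under placebo and E2, and the cause was not tested. With lymphocyte markers as a covariate the placebo median was -0.20 for the cell cycle list, -0.19 for MHC class II and 0.04 for interferon, and Mki67 was at 0.098 and Top2a at -0.11. Those markers did not overlap between the placebo genotypes, so medians from this fit can hardly tell the markers from genotype. ERalphaKO replicate 3, with the most granulocyte transcript, was the highest knockout library for Mki67, Top2a and Cd74. All 4 knockout libraries lay above both WT libraries for each of these genes. The part of granulocyte transcript in their levels was not tested. With WT replicate 2 and ERalphaKO replicate 3 both left out the interferon list had 7 members above and 8 below, the cell cycle list 14 above and 5 below, and the MHC class II list 8 above, against 30.8% of all genes above and 31.5% below in the 4 libraries that remain. In those libraries the protease list had 17 of 23 members below, the Wnt ligand list 16 of 26 and the glycolysis list 13 of 21. With lymphocyte markers as a covariate the medians were -0.05 for the protease list, -0.06 for Wnt ligands, -0.01 for fibrous matrix and -0.27 for glycolysis. Macrophage, osteoclast and complement lists had 0 members separated in either direction, and the endothelial list had 1.

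**Figure D4:**
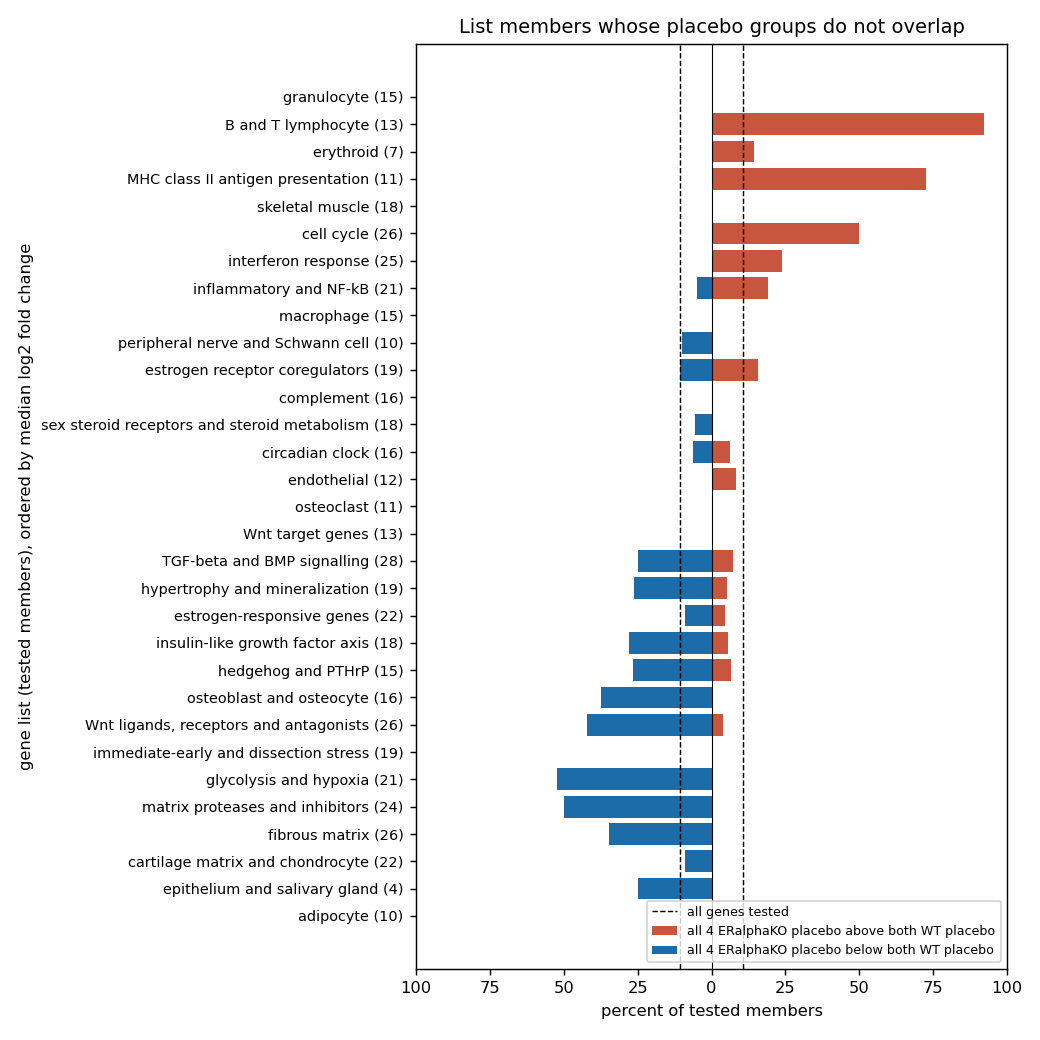
Percent of tested members of each gene list whose 4 ERalphaKO placebo libraries lie all above (right) or all below (left) both WT placebo libraries, with dashed lines at the same share over all genes tested (10.5% above, 10.6% below). Lymphocyte, MHC class II and cell cycle lists extend furthest to the right, and glycolysis, protease and Wnt ligand lists furthest to the left.

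The neighbours of Esr1 on its chromosome were described as a group of their own. Gene order came from the RefSeq annotation of build GRCm38.p6 and was used for order only, since the counts were made on mm9. Of 32 tested neighbours, 7 on one side and 25 on the other, 0 passed in edgeR and the median absolute log2 fold change was 0.17, against 0.14 over all genes. All 4 knockout libraries lay above WT for 6 (18.8%) and below for 3 (9.38%). The shares were 10.5% and 10.6% over all genes tested, and 9.50% and 12.1% over the 684 other tested genes of that chromosome. DESeq2 called 2 of the 32 neighbours higher, against 5 of those 684 genes and 0.633% of all genes it tested. Akap12, a scaffold for kinases, was at 11.6 and 8.35 CPM in WT and at 45.9, 47.3, 18.9 and 27.4 CPM in ERalphaKO, and Fbxo5, a cell cycle regulator, was at 5.63 and 6.92 against 14.4, 12, 19.8 and 10.5 CPM. In ERalphaKO E2 replicate 2 both were near the WT placebo level, at 9.15 and 6.62 CPM. In ERalphaKO E2 replicates 1 and 3 Akap12 was at 27.8 and 10.8 CPM and Fbxo5 at 11.9 and 12.1 CPM. Akap12 thus lay between its WT placebo values in replicate 3 as well.

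Promoters of RefSeq genes (GRCm38.p6, 250 bases before to 50 after the start) were matched for 10480 of the tested genes and searched on both strands. The palindromic estrogen response element, GGTCA and TGACC with 3 bases between, was found in 1 of them and in 0 promoters of the genes called under E2 or by DESeq2 under placebo. A single arm, GGTCA or its reverse complement TGACC, was in 42.4% of all matched promoters. It was in 50% of those of genes lower under E2 (33 of 66) and in 31.8% of those higher under E2 (14 of 44). For genes that DESeq2 called under placebo it was in 38.5% of those lower (5 of 13) and in 53.9% of those higher (41 of 76). Absence of these letters in this window says nothing about binding elsewhere.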

How the data were processed

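The members and gene lists were chosen with earlier results of these data known. RNA with an integrity number of at least 9 was enriched for polyadenylated transcripts and sequenced, per the labels' protocols. The submitters' processing notes name bcl2fastq 2.17, TopHat and the genome build mm9. The sources used here do not give the counting tool, annotation or strand, so overlapping genes on opposite strands, and near-identical copies, can share counts. The authors deposited raw counts per gene symbol. They also deposited a comparison table with a mean signal (normalized count), log2 fold changes and p-values, per the file headers.

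Genes passing edgeR's group-wise filter (minimum count 10) were normalized with TMM (trimmed mean of M values) and modelled over all 12 libraries, 1 mean per group (edgeR 4.0.16, R 4.3.3, 8 residual degrees of freedom, coefficient of variation 25.9%), with Benjamini-Hochberg adjustment at 0.05. Standard errors were calculated back from the F statistic. No 2 libraries held identical values. DESeq2 1.42.0, other scalings, filters and covariates, and left-out libraries were alternatives. Named genes were Esr1, those past the edgeR threshold without overlap, and the most abundant list members; all others were chosen after their values were seen. Scripts were tested on simulated data. The values of 1 lymphocyte marker are not reported here.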

Additional observations from a re-analysis of the deposited data

Results flagged for a closer look

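In 9 of 100 groups of 4 ERalphaKO placebo libraries examined, 1 library stood apart from the other 3 by more than 0.829 of the whole range on the log2 CPM scale, which is Dixon's critical value at 95%; chance gives about 1 in 20 such groups. Levels below are in CPM and gaps are shares of the log2 CPM range. ERalphaKO placebo replicate 3 was the library that stood apart in 7 of the 9. It was lowest for A2m (0.852 CPM against 1.86 to 2.03, gap 0.894 of the range), Scarb1 (61.3 against 68.2 to 68.5, gap 0.951), Cadps2 (9.65 against 14.2 to 15.3, gap 0.831) and Slc20a2 (126 against 153 to 155, gap 0.932). It was highest for Top2a (148 CPM against 89.1 to 92.4, gap 0.928). It was also highest for the mean log2 CPM of the cell cycle list (5.22 against 4.47 to 4.59, gap 0.844) and of the endothelial list (5.19 against 4.92 to 4.94, gap 0.911). Replicate 4 was lowest for Lck (1.37 CPM against 2.27 to 2.44, gap 0.880), and replicate 1 was highest for Limch1 (250.3 CPM against 213 to 216, gap 0.890). Replicate 3 also had the most muscle and granulocyte transcript, and its part in these gaps was not tested.

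The genotype effect differed between E2 and placebo for 8 genes by edgeR's test of the difference. In log2 units, E2 minus placebo, the difference was -5.85 for Greb1, -4.89 for Gbp8, -4.29 for Pi15, -4.21 for Trpc6, -3.66 for Gbp4, -2.01 for Thbs1, -1.67 for Whrn and 1.31 for Slc20a2.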

How the results depend on the processing

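The limits are the 2 WT placebo libraries and the uneven level of muscle and granulocyte markers. A fit without 1 of them leaves a lone WT library that is assumed to vary like the other groups. The counts of genes lower in ERalphaKO, 2 in the report, were 0 with the 6 placebo libraries alone, 1 with muscle markers and 0 with lymphocyte markers as a covariate, and 1 to 2 with 1 library left out. They were 1 with WT replicate 2 and ERalphaKO replicate 3 both left out, and 25 lower and 120 higher with DESeq2 (45 and 225 on the 6 placebo libraries alone). The cause of these differences was not tested. For Esr1 the log2 fold change was -1.77 with the 6 placebo libraries (edgeR adjusted p = 0.0847), -1.78 with muscle markers (0.0888), -1.86 with lymphocyte markers (1.000) and -1.85 with both libraries left out (0.267), and -1.92 to -1.62 with 1 left out. For A2m it was -3.58 with the 6 placebo libraries (0.0536) and -4.40 with lymphocyte markers (0.659). Calls shared with E2 numbered 0 with lymphocyte markers and 45 with DESeq2, against 1. Calls whose effect differed under E2 numbered 2 with granulocyte markers, 0 to 1 with 1 library left out and 9 with DESeq2, against 0.

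Of genes lower under E2, the number with all ERalphaKO placebo libraries below WT, 28 in the report, was 17 of 63 with muscle markers (27.0%, against 10.6% of all genes), 7 of 28 with lymphocyte markers (25%, against 10.6%), 51 of 100 with both libraries left out (51%, against 31.5%) and 57 of 252 with DESeq2 (22.6%, against 8.78%). Of genes higher under E2, the number above, 21 in the report, was 9 of 30 (30%, against 10.5%), 4 of 9 (44.4%, against 10.5%), 36 of 58 (62.1%, against 30.8%) and 82 of 239 (34.3%, against 9.32%) in that order, and 11 to 40 with 1 library left out. Fewer or more genes were called under E2 in these fits, which sets the numbers that can be counted.

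Of 31 list medians, 13 moved with lymphocyte markers as a covariate, 10 with both libraries left out 5 without WT replicate 1 and 5 without WT replicate 2.

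The replicate numbers pair no samples by their labels, and with 2 shared numbers the correlation of deviations was 0.50 for number 1 and 0.322 for number 2. With the number as a replicate block the counts were 0 genes lower, 0 calls shared with E2, 13 E2-lower genes below and 6 E2-higher genes above; Esr1 was at -1.81 (0.341) and A2m at -3.58 (0.0782).

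The placebo log2 difference changed sign in some fit for 11 genes, and the cause was not tested. Thbs1 was at -0.028 with muscle, -0.035 with granulocyte and -0.0089 with lymphocyte markers, -0.13 to 0.24 with 1 library left out and -0.29 without both. Whrn was at 0.011 with granulocyte and 0.027 with lymphocyte markers, -0.12 to 0.057 with 1 library left out and 0.034 without both. With lymphocyte markers Pax5 was at -0.56, Slc20a2 at -0.033, Gbp4 at -0.35, Mmp14 at 0.12, Top2a at -0.11, Cd74 at -0.65 and Akap12 at -0.033. Greb1 was at -0.60 to 0.48 with 1 library left out and 0.52 without both, Gbp8 at -0.13 to 0.95 and -0.41, and Gbp4 at -0.070 without both. The lymphocyte covariate, the fit without both libraries and DESeq2 on 6 libraries were chosen after seeing the data. The lymphocyte markers did not overlap between the placebo genotypes, so the fit with them can hardly tell the markers from genotype. Pax5 is itself among those markers.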
